A study of Mus musculus with 3 samples.

Results

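The 10 genes described here encode the pigment enzymes Tyr, Tyrp1 and Dct, the melanosome proteins Pmel, Mlana and Gpnmb, the transporters and channels Slc45a2, Oca2 and Trpm1, and the melanocortin receptor Mc1r. They were taken by symbol from the 14293 genes of the deposited RPKM table (reads per kilobase, normalised to the size of the library), and each of the 10 had a row. RNA had been sequenced from 3 sublines of the mouse melanoma line B16, labelled F0, F1 and F10, all from C57BL/6J mice and listed under separate ATCC numbers. All of them were grown in culture under the same protocol, in high-glucose medium with 8% serum and for at most 10 passages, as subconfluent monolayers with no treatment. F0 carries the name of the parental line, and F10 is in wide use as a subline selected for lung colonisation. With 1 library per subline, the differences have neither replicate error nor test, and subline, culture and library cannot be told apart. In bulk RNA, fewer pigmented cells and less of a transcript per cell cannot be told apart either.

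Melanin is made inside melanosomes, lysosome-related organelles of melanocytes. Tyr, a copper enzyme, oxidises tyrosine at the rate-limiting step, Dct converts dopachrome, and Tyrp1 acts on later intermediates of the brown to black pigment eumelanin in the mouse and stabilises Tyr. Pmel forms the amyloid-like fibrils on which the pigment is laid down. Mc1r answers melanocortin peptides by raising cyclic AMP, which induces the transcription factor MITF, and MITF drives most of the genes named here through an extended E-box called the M-box. B16 cells are known for keeping pigment genes active.

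The stretch before the RefSeq start is shown for the 5 genes in which TCATGTG, a short part of the M-box, was found. These genes read higher in F10 in some cases and lower in others. Windows of 250 bases before the start were available from RefSeq (GRCm38.p6) for 7 of the 10 genes, and Pmel, Mlana and Slc45a2 had none. Both strands were searched for TCATGTG, within which lies the shorter CATGTG. It was present in 5 of the 7 genes, against 3.72% of all 27025 genes with a window. The shorter CATGTG was present in 6 of the 7, Oca2 being the additional gene, against 13.8% of genes. CACGTG, the other common E-box, was found in 1 of the 7, in the second Trpm1 window, against 6.86%. Tyr had its match from 22 to 16 bases before the RefSeq start, Tyrp1 from 47 to 41, Mc1r from 52 to 46 and the first Trpm1 window from 142 to 136. Dct had a match from 151 to 145 bases before the start and another on the opposite strand from 232 to 226. The RefSeq starts are not always those of the gene positions given with the values below, which come from GENCODE. For Tyrp1 the GENCODE gene begins 90 bases further upstream, so that the match lies inside it. For Mc1r the GENCODE gene begins 25 bases further downstream, for Dct 2 bases, and for Tyr and the first Trpm1 window the starts are the same. Neither the Gpnmb window nor the second Trpm1 window held TCATGTG. The windows below are chr7:87493513-87493762 and chr14:118052247-118052496 on the minus strand and chr4:80833963-80834212, chr7:64153585-64153834 and chr8:123406832-123407081 on the plus strand, written in the direction of transcription, with matches in capitals.
Tyr: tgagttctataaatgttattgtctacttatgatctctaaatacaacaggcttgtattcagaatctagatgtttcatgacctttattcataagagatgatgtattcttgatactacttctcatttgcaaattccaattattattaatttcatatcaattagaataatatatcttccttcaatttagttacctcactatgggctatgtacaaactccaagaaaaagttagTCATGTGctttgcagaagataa
Tyrp1: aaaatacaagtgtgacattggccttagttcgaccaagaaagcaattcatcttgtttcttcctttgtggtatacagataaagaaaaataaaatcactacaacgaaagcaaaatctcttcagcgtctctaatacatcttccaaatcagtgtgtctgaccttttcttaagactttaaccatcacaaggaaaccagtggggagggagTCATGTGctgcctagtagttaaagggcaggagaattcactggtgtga
Dct: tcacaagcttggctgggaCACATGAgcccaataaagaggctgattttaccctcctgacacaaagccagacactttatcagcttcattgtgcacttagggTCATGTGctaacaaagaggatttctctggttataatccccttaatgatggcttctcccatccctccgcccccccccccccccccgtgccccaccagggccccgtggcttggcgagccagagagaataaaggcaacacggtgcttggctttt
Trpm1: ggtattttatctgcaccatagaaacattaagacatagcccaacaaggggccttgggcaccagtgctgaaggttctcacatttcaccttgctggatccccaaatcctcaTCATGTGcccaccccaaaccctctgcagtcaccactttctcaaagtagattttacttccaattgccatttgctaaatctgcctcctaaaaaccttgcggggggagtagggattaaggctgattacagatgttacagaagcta
Mc1r: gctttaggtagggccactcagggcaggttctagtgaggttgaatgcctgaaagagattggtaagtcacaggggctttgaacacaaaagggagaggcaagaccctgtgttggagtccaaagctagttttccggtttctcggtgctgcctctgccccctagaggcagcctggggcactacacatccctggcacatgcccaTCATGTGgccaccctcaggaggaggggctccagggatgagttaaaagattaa
A match of letters is a description of the window and was not tied to binding in these data.

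Depth was estimated from the steps of the lowest RPKM values. At 1 RPKM, 1 kb of transcript corresponded to 5.46 fragments for F0, 6.39 for F1 and 5.36 for F10. The 10 genes rested on between 371 and 48887 estimated fragments per library. Ratios below carry approximate 95% Clopper-Pearson intervals from these fragments, which cover counting error only. The melanocyte identity of the libraries was plain, with all 14 melanocyte markers, the 10 genes among them, above 1 RPKM in every library, including Sox10 at 68.9, 59.5 and 89.5 RPKM in F0, F1 and F10. Of 16 macrophage and leukocyte markers 5 had a row, summing to 4.04, 4.18 and 4.71 RPKM, and Ptprc, which defines leukocytes, was listed at 0 in F0 and F10 and read 0.0308 in F1. Keratinocyte markers (2 of 10 with a row) summed to 0.2 in F0, 0.0167 in F1 and 0 RPKM in F10. Fibroblast markers (9 of 10) summed to 5.48, 4.86 and 13.4 RPKM, with Lum listed at 0 in F0 and Fap in F1. They were higher in F10, and their part in the differences between F10 and the other libraries was not tested. Of the markers of retinal pigment epithelium, which also makes melanin, 4 of 10 had a row, and apart from Mitf, which both cell types share, none exceeded 1.51 RPKM. Markers of dedifferentiated melanoma (7 of 10) summed to 21.8, 27.7 and 21.7 RPKM, with Egfr and Tnc listed at 0 in F0 and F1. Of these sums, Jun alone held 5.62, 13.7 and 4.61 RPKM. Sox9 (1.84, 2.71 and 2.14) was also highest in F1, while Axl (1.59, 0.831 and 2.91) and Nes (12.7, 10.1 and 11.3) were lowest there.

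These genes ranged widely in level, and 5 of them were among the most abundant transcripts of the cells. Together the 10 genes summed to 12215, 10441 and 9893 RPKM in F0, F1 and F10, which was 3.31%, 2.9% and 2.82% of all RPKM. Of the 10 genes, 5 (Tyrp1, Dct, Pmel, Gpnmb and Mlana) ranked within the top 31 of all genes in every library. They made up 94.3%, 95.3% and 93.8% of the summed level. Tyrp1 was the highest of the 10 in each library and ranked 5 among all genes every time. The lowest was Oca2, at 20.1 to 28.9 RPKM. The order of levels was nearly the same in the 3 libraries, with Slc45a2, Tyr, Trpm1, Mc1r and Oca2 following the 5 abundant genes in that order each time. Within F0 the 3 highest, Tyrp1, Pmel and Dct, lay within 1.05-fold of each other, and Tyrp1 exceeded Pmel by a ratio of only 1.02 (interval 1 to 1.03). In F1 and F10 Dct stood above Pmel. In F1, Trpm1 and Mc1r did not differ beyond counting error, at a ratio of 1.07 (0.985 to 1.17).

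**Figure D1:**
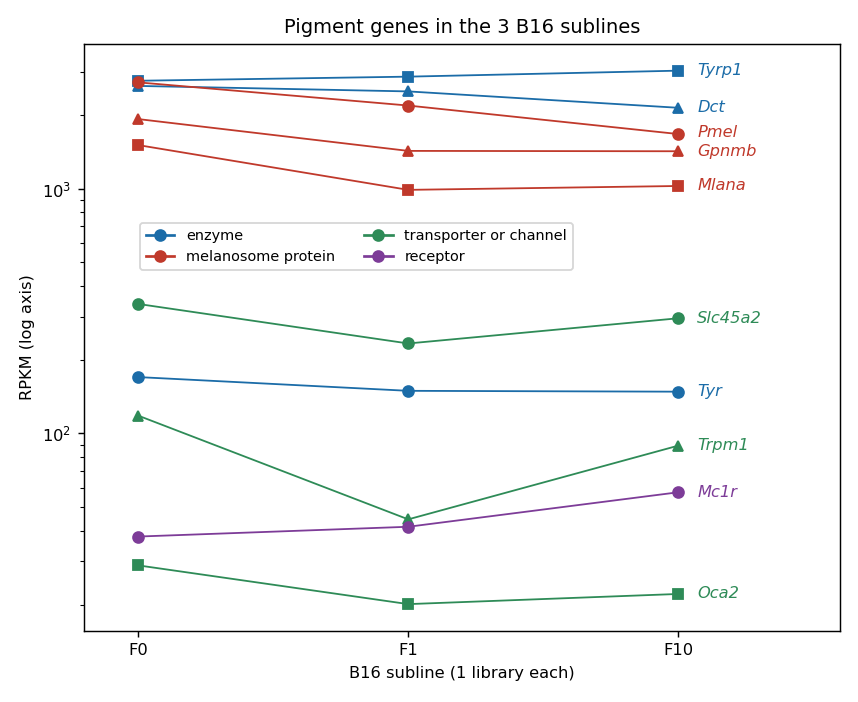
RPKM of the 10 pigment genes (vertical log axis) in the 3 B16 sublines (horizontal axis), 1 library each, coloured by role. The 5 abundant genes lie between 988 and 3030 RPKM, Tyrp1 is the highest in each library, and Trpm1 dips from 118 RPKM in F0 to 44.6 in F1.

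Among the enzymes, Tyrp1 read higher and Dct and Tyr read lower in F10 than in F0. Tyrp1 (chromosome 4, 80834123 to 80851719, GRCm38) read 2755 in F0, 2864 in F1 and 3030 RPKM in F10. F0 was the lowest and F10 the highest, with an F10 to F0 ratio of 1.1 (1.08 to 1.11). Dct (chromosome 14, 118012790 to 118052244) read 2625, 2493 and 2137 RPKM, the opposite order. The F0 to F10 ratio of Dct was 1.23 (1.21 to 1.25), and its F0 to F1 ratio was 1.05 (1.04 to 1.07). Tyr (chromosome 7, 87424771 to 87493512), the enzyme that starts the pathway, was far less abundant than the other 2, at 170 in F0, 149 in F1 and 148 RPKM in F10. F1 and F10 were level for Tyr, with an F10 to F1 ratio of 0.992 (0.954 to 1.03), and both lay below F0, with F0 ratios of 1.14 (1.1 to 1.18) and 1.15 (1.1 to 1.19). Tyrp1 stood at 16.2 times the level of Tyr in F0, 19.2 times in F1 and 20.5 times in F10. The 3 enzymes together summed to 5550 in F0, 5506 in F1 and 5315 RPKM in F10, an F10 to F0 ratio of 0.958.

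The 3 melanosome proteins all read lower in F1 and in F10 than in F0. Pmel (chromosome 10, 128704195 to 128720238), the fibril protein, read 2714 in F0, 2183 in F1 and 1669 RPKM in F10, stepping down at each subline. Its F0 to F1 ratio was 1.24 (1.22 to 1.26) and its F1 to F10 ratio 1.31 (1.28 to 1.33). Mlana (chromosome 19, 29697824 to 29708634), a small membrane protein of melanosomes that binds Pmel, read 1505, 988 and 1025 RPKM. For Mlana F0 stood apart while F1 and F10 were level, with an F10 to F1 ratio of 1.04 (0.998 to 1.08). Gpnmb (chromosome 6, 49036546 to 49070929), a glycoprotein related to Pmel, read 1922, 1425 and 1420 RPKM. It too was high in F0 and level in F1 and F10, at a ratio of 0.997 (0.981 to 1.01). Gpnmb is also made by macrophages, and the 5 of 16 macrophage and leukocyte markers with a row summed to at most 4.71 RPKM in any library. Their part in the Gpnmb level was not tested. In the authors' deposited table, Mlana had the lowest score of 13759 scored genes for F1 against F0, at -10.4, with Gpnmb ranked 2 from the lowest at -8.59 and Pmel ranked 5 at -7.6. Pmel had the lowest score of 13873 genes for F10 against F0 in the authors' deposited table, at -15.8. That score takes the RPKM difference over the root of the summed RPKM, so at equal fold it grows with level. The 3 proteins summed to 6141, 4595 and 4114 RPKM, an F10 to F0 ratio of 0.67.

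The Pmel value carries a counting limit. Its gene overlaps Cdk2, the cell cycle kinase, on the opposite strand over 837 bases, and whether strand was used in counting is not given in the sources used here. Cdk2 read 211 in F0, 158 in F1 and 158 RPKM in F10, and Pmel stood at 12.9, 13.8 and 10.6 times Cdk2. Pmel also overlaps Dgka on the opposite strand over 105 bases, and Dgka read 0.469 to 0.796 RPKM. Dct, Oca2 and Trpm1 overlap unnamed antisense or unclassified genes, and Mc1r lies wholly within Gm20388 on the same strand. How reads were shared between these was not tested.

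The transporters and channels shared a pattern in which F0 was the highest and F1 the lowest. Slc45a2 (chromosome 15, 11000721 to 11029233), a melanosomal transporter that is mutated in the underwhite mouse, read 338 in F0, 233 in F1 and 295 RPKM in F10. Its F0 to F1 ratio was 1.45 (1.39 to 1.51), and F10 lay between, at 1.27 times F1 (1.22 to 1.32). Oca2 (chromosome 7, 56239760 to 56536518), the pink-eyed dilution protein that supports melanosome chloride conductance, read 28.9, 20.1 and 22.1 RPKM. Its F0 to F1 ratio was 1.44 (1.26 to 1.65), while F10 and F1 did not differ beyond counting error, at 1.1 (0.952 to 1.27). Trpm1 (chromosome 7, 64153835 to 64269775), a cation channel whose gene hosts the microRNA gene Mir211, read 118, 44.6 and 89.2 RPKM. It had the widest range of the 10 genes, and F0 stood at 2.65 times F1 (2.48 to 2.84). Between F10 and F1 the Trpm1 RPKM ratio was 2 (1.86 to 2.15), and the difference of 0.98 on the log2(RPKM + 1) scale fell just short of 1. Its F0 to F10 ratio was 1.33 (1.25 to 1.4). Among all genes Trpm1 ranked 505 in F0, 1451 in F1 and 641 in F10.

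Mc1r (chromosome 8, 123407107 to 123410744), the receptor upstream of the pathway, went the other way. It read 37.9 in F0, 41.6 in F1 and 57.5 RPKM in F10. F10 was the highest, with an F10 to F0 ratio of 1.52 (1.38 to 1.67) and an F10 to F1 ratio of 1.38 (1.27 to 1.51). F1 and F0 did not differ beyond counting error, at 1.1 (0.996 to 1.21). Mc1r and Tyrp1 were the only 2 of the 10 genes that read higher in F1 and in F10 than in F0.

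Differences were taken on the log2(RPKM + 1) scale, beside 10701 genes with at least 1 RPKM in at least 1 library, and all 10 genes passed this filter. For F10 against F0, 0 of the 10 differed at least 2-fold, where 3.15% of compared genes did, and 1.27% of the 3231 genes averaging at least 20 RPKM, a level all 10 genes reach. For F1 against F0, 1 of the 10 (Trpm1) did, where 1.99% of compared genes and 0.959% of the abundant genes did. For F10 against F1 it was again 0 of 10, where 3.98% and 1.98% did. Since most differences were below 2-fold, a threshold of 1.2-fold was added after the values were seen. Against F0, 6 of the 10 were at least 1.2-fold lower in F10 (Dct, Pmel, Mlana, Gpnmb, Oca2 and Trpm1), where 26.4% of the abundant genes were, and 1 was higher (Mc1r), where 13.2% were. In F1, 6 of the 10 were at least 1.2-fold lower than in F0 (Pmel, Mlana, Gpnmb, Slc45a2, Oca2 and Trpm1), where 20.9% of the abundant genes were, and 0 were higher, where 13.7% were. These 2 comparisons share the F0 library. For F10 against F1, 3 were higher (Slc45a2, Trpm1 and Mc1r), where 15.7% were, and 1 was lower (Pmel), where 23.5% were. Counted by sign alone, 8 of the 10 lay below F0 in F10, where 60.0% of abundant genes did, and 8 in F1, where 54.9% did. Between F10 and F1, 4 lay lower, where 55.0% did. The median difference over the 10 genes was -0.33 in F10 and -0.37 in F1, both against F0, and 0.07 between F10 and F1. Over all compared genes the medians were -0.01, -0.01 and -0.01, and over the abundant genes they were -0.07, -0.03 and -0.04.

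**Figure D2:**
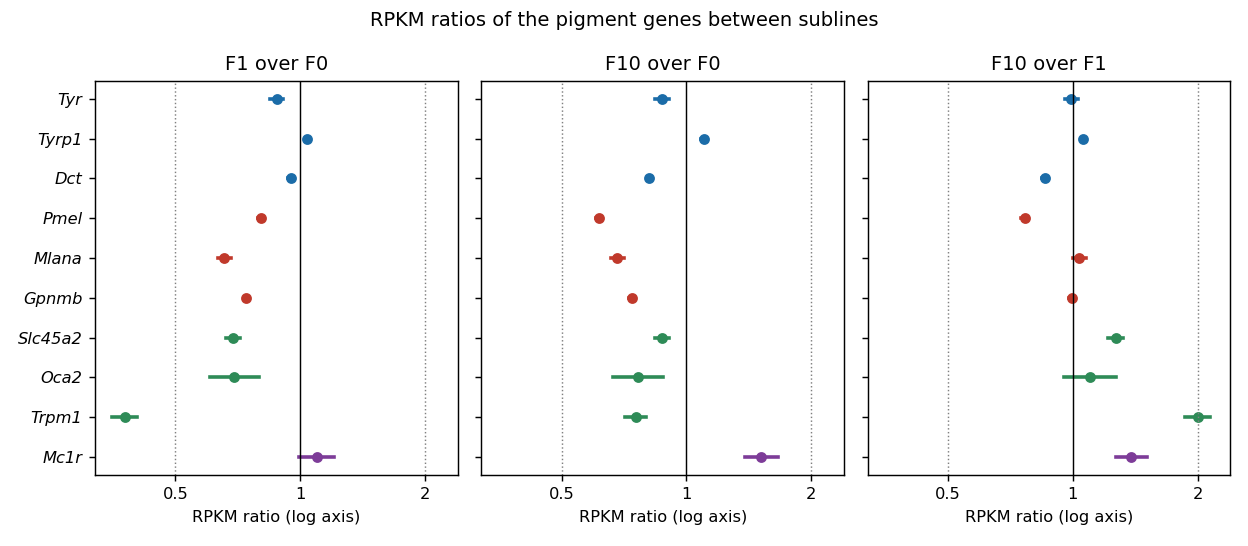
RPKM ratios of the 10 pigment genes (horizontal log axis) for F1 over F0, F10 over F0 and F10 over F1, with points for the ratio and bars for approximate 95% counting intervals, and dotted lines at 2-fold. Trpm1 is the only gene beyond 2-fold from F0, at 0.377 in F1, and Mc1r is the highest ratio in the F10 over F0 panel, at 1.52.

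**Figure D3:**
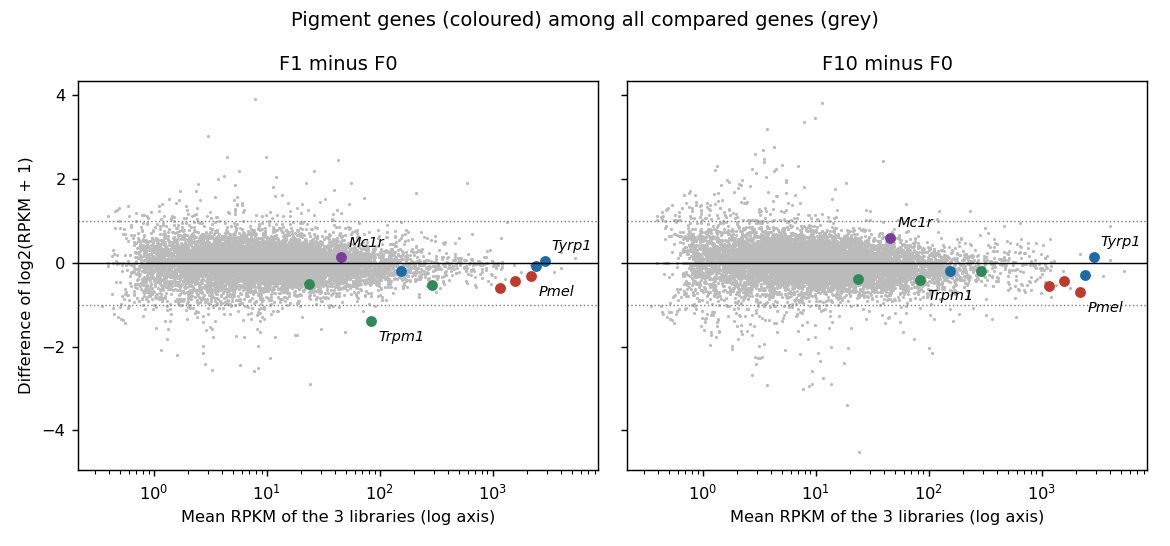
Difference of log2(RPKM + 1) from F0 (vertical axis) against the mean RPKM of the 3 libraries (horizontal log axis) for the 10701 compared genes in grey and the 10 pigment genes in colour, with dotted lines at 2-fold. Trpm1 lies at -1.39 in F1, and the abundant melanosome proteins lie below 0 in both panels, Pmel reaching -0.70 in F10.

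The make-up of the pigment gene RNA differed between the sublines. Shares within a library do not depend on how the libraries were scaled to each other. The 3 enzymes made up 45.4% of the summed RPKM of the 10 genes in F0, while in F1 it was 52.7% and in F10 53.7%. The 3 melanosome proteins made up 50.3%, 44% and 41.6%. Tyrp1 alone went from 22.6% in F0 to 27.4% in F1 and 30.6% in F10, and Pmel from 22.2% to 20.9% and 16.9%. Tyrp1 stood at 1.02 times Pmel in F0, 1.31 times in F1 and 1.82 times in F10. Dct kept a more even share, at 21.5%, 23.9% and 21.6%. Mc1r stood at 0.321 times Trpm1 in F0, 0.933 times in F1 and 0.645 times in F10, so the ratio of receptor to channel RNA was highest in F1. The transporters and channels made up 3.97%, 2.85% and 4.11%.

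**Figure D4:**
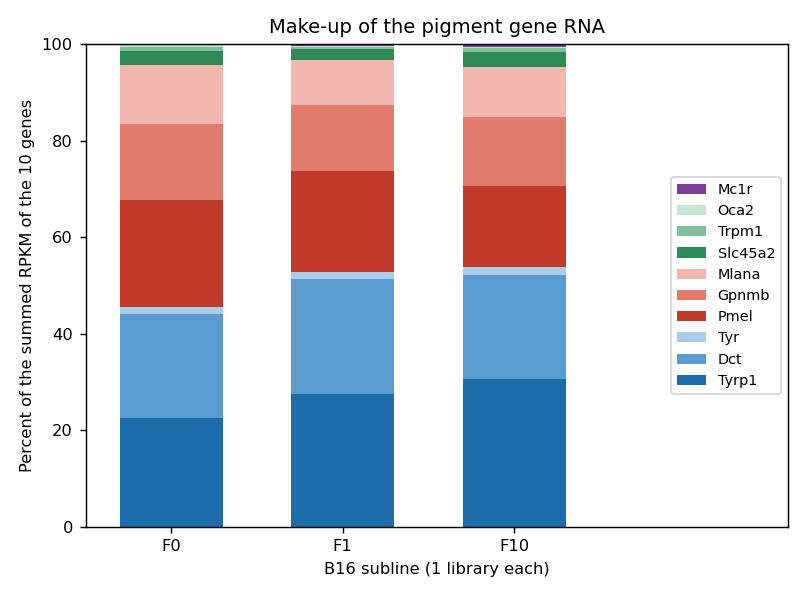
Percent of the summed RPKM of the 10 genes (vertical axis) held by each gene in F0, F1 and F10 (horizontal axis), 1 library each, with enzymes in blue, melanosome proteins in red, transporters and channels in green and the receptor in purple. The Tyrp1 segment widens from 22.6% in F0 to 30.6% in F10 while the Pmel segment narrows from 22.2% to 16.9%.

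The genes around each pigment gene on its chromosome differed between libraries as well. Over the 40 nearest compared genes, the median F10 minus F0 difference ranged from -0.44 around Pmel to 0.28 around Oca2. Around Dct it was -0.30, the same as for Dct itself at -0.30. Around Tyrp1 it was 0.25, above the 0.14 of Tyrp1. Pmel, at -0.70, lay at -0.26 relative to its neighbours. The 3 genes on chromosome 7 lay in surroundings that read higher in F10, with neighbour medians of 0.18 for Tyr, 0.24 for Trpm1 and 0.28 for Oca2, while the genes themselves lay at -0.20, -0.40 and -0.37. Mc1r, at 0.59, exceeded its neighbours, which had a median of 0.13. In all, 8 of the 10 lay below their neighbours for F10 against F0, where 59.6% of the abundant genes did, and Dct (by 0.01) and Mc1r (by 0.46) lay above. For F1 against F0, neighbour medians ranged from -0.19 to 0.20, and 9 of the 10 lay below their neighbours, where 53.1% of the abundant genes did. Mc1r lay above by 0.21. Of the 9 below, Dct (at -0.02 relative to its neighbours) and Tyrp1 were nearly level with theirs. Between F10 and F1, 5 lay below and 5 above, where 55.7% of the abundant genes lay below. Trpm1 lay at -1.39 in F1 while its neighbours had a median of 0.20. The part of the surroundings in each difference was not tested.

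**Figure D5:**
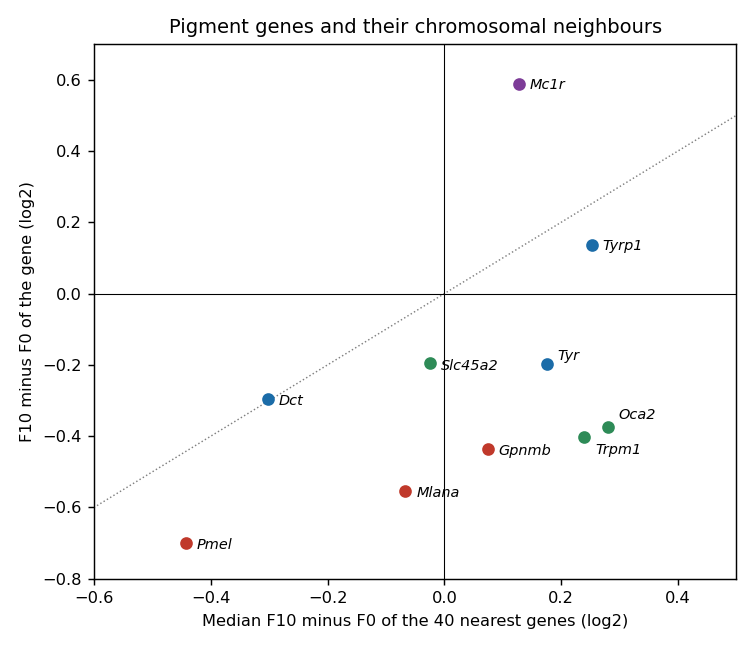
F10 minus F0 difference of log2(RPKM + 1) for each of the 10 pigment genes (vertical axis) against the median difference of its 40 nearest compared genes on the chromosome (horizontal axis), 1 library per subline, with a dotted line of equal values and colours by role. Dct lies on the line at -0.30, Mc1r lies above it at 0.59, and Tyr, Trpm1 and Oca2 lie below 0 while their neighbours lie above it.

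Other genes of the pathway were taken from lists drawn up with earlier results of these data known. Of 20 regulators of the melanocyte lineage, 12 were compared, and 10 of them lay above F0 and 2 below in F10, with a median of 0.16, where 49.0% of all compared genes lay above. In F1, 7 lay above F0 and 5 below, with a median of 0.28, where 49.1% lay above. Mitf and Sox10 were among the 5 below F0 in F1. The mean over the 12 was 0.03 in F10 and 0.04 in F1, both against F0. Between F10 and F1, 4 were higher in F10 and 8 lower, with a median of -0.11, where 48.8% were higher. Mitf, the master regulator of pigment genes, read 57.9 in F0, 43.9 in F1 and 62.8 RPKM in F10. For F10 against F0, 0 of the 12 were at least 2-fold higher and 1 lower, where 3.15% of all compared genes differed in either direction. The lower gene was Cited1, a transcriptional co-activator (84.9, 50.6 and 31.4 RPKM). For F1 against F0, 0 differed at least 2-fold, where 1.99% did. Between F10 and F1, 2 were higher in F10 and 1 lower, where 3.98% differed in either direction. The higher ones were Tbx2, a T-box factor of melanocytes (15, 8.01 and 20.6), and Tfeb, a relative of Mitf (2.76, 1.68 and 4.81). The lower one was Snai2, a neural crest factor (2.04, 4.15 and 0.75). Snai2 rested on 8 estimated fragments in F10, and Tfeb on 25 in F1.

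Of 34 genes of melanocortin and cyclic AMP signalling, 25 were compared, with medians of -0.02 for F10 against F0 and -0.13 for F1 against F0. Mgrn1, a ubiquitin ligase whose loss darkens the mouse coat, read 21 in F0, 18.7 in F1 and 51.1 RPKM in F10. It was the only 1 of these 25 at least 2-fold higher in F10 than in F0, where 165 of all 10701 compared genes were. Crem, a cyclic AMP responsive factor, read 9.17, 11.6 and 4.83, and Prkacb, a catalytic subunit of protein kinase A, read 17.3, 16.6 and 26.8. Melanosome biogenesis and transport genes numbered 39 compared of 40, with a median of -0.13 in F10 and -0.09 in F1 against F0. In F1, 0 were at least 2-fold apart from F0, where 1.99% of all compared genes were. In F10, 1 was at least 2-fold apart from F0 and 1 from F1, where 3.15% and 3.98% were. The gene was Rab17 in both cases, a small GTPase, at 2.32, 2.06 and 12 RPKM. Cd63, a tetraspanin that takes part in sorting Pmel, read 762, 562 and 423 RPKM, so like Pmel it stepped down from F0 to F1 to F10. Bloc1s5, a subunit of a complex for melanosome cargo, read 13.5, 14.2 and 7.78.

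Of 26 genes of melanosome membrane transport and pH, 22 were compared, with a median of -0.11 in F10 and -0.18 in F1 against F0. At least 2-fold higher than in F0 were 1 in F10 and 2 in F1, and 0 were lower. Of all compared genes, 3.15% and 1.99% differed in either direction. Between F10 and F1, 1 was higher in F10 and 2 lower, where 3.98% differed in either direction. Slc24a5, a cation exchanger needed for normal pigmentation, read 430, 318 and 349 RPKM, the same order of libraries as for Slc45a2 and Mlana, and was chosen after its values were seen. Slc7a11, the cystine transporter that feeds the red to yellow pigment pheomelanin, read 29.8, 72.8 and 22.4, and the cation channel Mcoln3 read 0.98, 5.99 and 27. Mcoln3 had the highest F10 minus F0 difference of all compared genes, at 3.82, and rested on 16 estimated fragments in F0. Slc17a9 read 0.255 RPKM in F0 and 1.24 in F1 and was listed at 0 in F10, on at most 18 estimated fragments.

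Likeness of pattern was measured as the distance between the differences of F1 and F10 from F0, over 3 libraries, among 3155 other named genes averaging at least 20 RPKM. Nearest to the median of the 10 genes were Rapsn (distance 0.01), Capzb (0.01) and Psap (0.01), and 83 genes lay within 0.1, so a likeness over 3 libraries sets few genes apart. Psap, the lysosomal protein prosaposin, read 265, 204 and 212 RPKM. Nearest to Pmel were Hexa, a lysosomal hexosaminidase subunit, at 220, 178 and 135 RPKM, and Pfdn4, with 22 genes within 0.1. Nearest to Tyr were Vps36 and Rpa3, with 202 genes within 0.1, and nearest to Mc1r were App (43.7, 48.2 and 66.4 RPKM) and Necap2, with 24.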

How the data were processed

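Polyadenylated RNA of 3 sublines was sequenced with a stranded kit, per the labels' protocols. Reads were processed with tools that include TopHat, Cufflinks, Bowtie2 and bcl2fastq on mm10, per the submitters' processing notes, and no version, setting, annotation or use of strand in counting is given in the sources used here. Per the file headers, the deposited values are RPKM. The authors' score columns equal the RPKM difference over the root of the summed RPKM, checked on every scored gene, and 2 columns of absolute scores were not used. A spreadsheet date replaced the symbol in 20 of 14313 rows, and these were left out.

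Differences are of log2(RPKM + 1), which understates differences of low genes, for genes with at least 1 RPKM in at least 1 library. Fragments were estimated from the RPKM steps of 1392 genes with a single transcript of at least 800 bases (length less 40) and from the median length of each gene's consensus coding transcripts in GENCODE M21 (GRCm38, the same build as mm10), found for 99.1% of genes. Of values near the step, 70.9% (F0), 73.9% (F1) and 77.8% (F10) lay within 5% of it. The estimate of the RPKM step, the 2-fold call and the counting interval were tested on simulated fragments. The other calculations were not. The simulation used the lengths and depths estimated here, without the length offset of 40, so it could not test whether these hold for the deposited values. Python 3.11.15, pandas 2.3.3 and scipy 1.17.1 were used.

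The 10 genes and the lists were chosen with earlier results of these data known. Named are the 10 genes, the members of each list at least 2-fold apart in a pair (filled up to 3 by the F10 against F0 difference), and the nearest genes by distance. The ratios between genes within a library, the 1.2-fold threshold and the markers and neighbours singled out were chosen after the values were seen. Alternatives were other pseudocounts, filters, scalings, thresholds, GC bins and chromosomal neighbours.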

Additional observations from a re-analysis of the deposited data

How the results depend on the processing

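No paired analysis was possible because each subline has 1 library, and for the same reason no library could be left out. Of 75 settings tried on the counts, medians and sums of the 10 genes, 57 left the value the same, 18 moved it and 0 turned its direction. A count was the same within 1.5 times, and a sum within its counting error. A median was the same between the median lower and the median upper interval bound of the 10 genes. That band is not a counting error of the median itself. The other filters could move nothing, because all 10 genes average at least 20 RPKM, and they are counted among the 57. Only medians could turn direction, since counts and sums have none. The number of genes past the threshold depends on the threshold. At 1.5-fold it was 2 for F10 and 2 for F1, both against F0, and 1 between F10 and F1, and at 1.2-fold 7, 6 and 4. At 4-fold it was 0 for F1 against F0. The share of all genes past 1.5-fold or 4-fold was not computed, so the counts at these thresholds have no background beside them. For F10 against F1 the count went from 0 to 1, through Trpm1, on the TPM scale, with the 10 genes and the 20 highest genes left out of the sum, and with GC bins subtracted. The median of that pair was 0.10 on the TPM scale and 0.19 with GC bins subtracted, and the mean was 0.14. The summed level was 11913 RPKM in F0 and 10150 in F10 on the TPM scale, 11912 and 10146 with the 10 genes and the highest genes left out, and 9955 in F10 with median ratios. Over these 3 scalings the sign of each gene's difference held in 28 of 30 cases. The exceptions were Tyr and Gpnmb for F10 against F1, at -0.01 and -0.005 as deposited and 0.03 and 0.03 on the TPM scale. The widest counting intervals among the 10 genes were those of Oca2, which rested on 371 to 495 estimated fragments.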

Other observations

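Of 38 further genes linked to pigment cells or to partners of the pigment enzymes, 28 were compared, with a median of -0.15 for F10 against F0 and 0.00 for F1 against F0. In F10, 3 were at least 2-fold higher (Met, Ppargc1a and Mlip) and 2 lower (Ptgds and Kcnj13) than in F0, where 3.15% of all compared genes differed in either direction. In F1, 0 were higher and 1 lower than in F0, where 1.99% differed in either direction. The list was drawn up with earlier results of these data known, so its counts are not independent of the values. Ptgds, a prostaglandin D synthase, read 513 in F0, 372 in F1 and 204 RPKM in F10, stepping down as Pmel did. Kcnj13, a potassium channel, read 7.74, 1.55 and 0.838 RPKM, on 6 estimated fragments in F10. Ppargc1a, a co-activator of mitochondrial genes that also acts on Mitf, read 3.66, 4.54 and 15.4, and Met, the receptor of hepatocyte growth factor, read 81.2, 99.6 and 192. Ggt1, which cleaves glutathione, read 4.43, 1.74 and 4.66. Mlip was listed at 0 in F0 and F1 and read 2.31 RPKM in F10, on 15 estimated fragments, and was put on the list without a known pigment role.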
